A study of Mus musculus with 16 samples.

Results

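Genes that the extracellular signal-regulated kinase (ERK) switches on, some of which in turn restrain it, were read in mouse lung tumour cells with and without targeting of Eif4a2. The set holds 10 genes, taken by symbol from the 20622 genes in the total RNA tables: the phosphatases Dusp4, Dusp5 and Dusp6, the Sprouty genes Spry2 and Spry4, the Sprouty-related genes Spred1 and Spred2, the transcription factors Etv4 and Etv5, and Phlda1. All 10 were also present among the 15235 transcripts with footprint counts, and all 10 passed the filter on low counts in both kinds of library. The rule used no measured value.

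KM cells were derived from lung tumours of a mouse with Rosa26LSL-MYC/LSL-MYC and a further engineered oncogene allele, so both lines carry the MYC transgenes and that allele. KMNTC cells received a non-targeting guide, and KM4A2cr cells received a lentiCRISPR guide against Eif4a2, which encodes an RNA helicase linked to repression of translation. The KM4A2cr line was a pool of 4 clones that the authors selected as negative for eIF4A2 protein by western blot. What distinguishes those clones and what follows from the guide therefore cannot be told apart. Neither line was treated. Fragments protected by ribosomes (RPFs) and total RNA of the cytoplasm came from the same lysate in each of 4 replicates per line, prepared on different days, which gave 8 libraries of each kind.

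ERK is the last kinase of the RAS-RAF-MEK cascade, through which growth factor receptors signal. Once active, ERK raises the transcription of its own inhibitors: dual-specificity phosphatases remove its activating phosphates, and Sprouty and SPRED proteins hold back signalling between the receptor and RAF. Because the mRNAs and proteins of these genes turn over quickly, their levels are widely used as a readout of pathway output.

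Libraries held between 4512403 and 9621848 RPF counts and between 5350919 and 9312622 total RNA counts, and replicate 4 was the shallowest in every group. Levels below are depth-scaled counts (CPM) after TMM normalisation within each kind of library. Replicate 4 stood apart in both lines: across 10291 genes its RPF profiles correlated with those of replicates 1 to 3 at 0.885 to 0.948, against 0.922 to 0.981 among replicates 1 to 3. All 6 of 6 epithelial markers were measured, with a summed RPF level of 8118 to 12660 CPM. Of the 6 alveolar type II markers, Sftpc and Sftpb had 0 total RNA counts in every library, Nkx2-1 and Sftpa1 had at most 1, Lamp3 had 6 to 23 and Abca3 stood at 75.5 to 194 CPM. The summed level of the 4 leukocyte markers was 75.2 to 129 CPM in RPFs of replicates 1 to 3 and 779 (KMNTC) and 695 (KM4A2cr) in replicate 4, nearly all of it Cd68, and its part in the results was not tested. The targeted gene Eif4a2 still gave reads in KM4A2cr cells: its RPFs were 97.7, 122, 99.9 and 389 CPM in KMNTC and 51.0, 88.4, 74.8 and 346 CPM in KM4A2cr, and fell by 0.49 on the log2 scale (SE 0.15, adjusted p = 0.0941, edgeR). These reads do not measure eIF4A2 protein. In bulk lysates, fewer cells expressing a gene and less RNA per cell cannot be told apart.

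Promoter sequence of the members is shown because ERK relieves repression by capicua (Cic), a DNA-binding repressor of several of these genes, whose binding octamer is known. Of the 10 members, 6 matched a RefSeq promoter window of GRCm38.p6 (Dusp5, Dusp6, Spry2, Spred1, Spred2 and Etv5), each running from 250 bases before to 50 bases after the transcription start. The letters TGAATGAA, TGAATGGA, TCAATGAA and TCAATGGA were searched on both strands. They occurred in 1260 of all 32851 windows, or 3.84%, and in those of 2 members. Dusp6 held TCAATGGA at 2 places and Spry2 held TCAATGAA once, each as its reverse complement on the gene's strand. The lines below give 24 bases around each match, 5′ to 3′ on the strand of the gene, with the octamer in capitals.
Dusp6, chr10:99263199-99263222, plus strand, positions -24 to -17 from the start: agaatgtaTCCATTGAgacgctgg
Dusp6, chr10:99263224-99263247, plus strand, positions 2 to 9 from the start: tgtttgtaTCCATTGAggagctgc
Spry2, chr14:105896858-105896881, minus strand, positions -54 to -47 from the start: gcctcttgTTCATTGAgaaaaaaa
A match is a description of the letters and not a site of binding. The fitted RPF changes of the 2 genes had opposite signs, as the values below show. Cic itself differed by 0.31 on the log2 scale in RPFs (SE 0.17, adjusted p = 0.310, edgeR) and by 0.16 in total RNA (SE 0.13, adjusted p = 0.558, edgeR).

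On transcript abundance per length in KMNTC cells, Spry2 was the most abundant member, at 153 ± 29.2 TPM (SD, n = 4), and its range lay above that of every other member. Spred1 (96.9 ± 7.48 TPM), Phlda1 (86.1 ± 19.9), Dusp6 (77.6 ± 37.6) and Dusp5 (75.2 ± 13.2) followed with overlapping ranges. Dusp5 lay clear of Dusp4 (23.9 ± 5.41 TPM), below which came Etv4 (20.5 ± 4.68), Etv5 (14.8 ± 5.15) and Spred2 (13.9 ± 3.40), each overlapping the next. Spry4 was the scarcest at 4.05 ± 1.27 TPM and did not overlap Spred2. Spry4 and Spred2 had the fewest RPF counts as well, 12 to 40 per library for Spry4 and 16 to 77 for Spred2.

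The comparison of KM4A2cr with KMNTC asks whether the output of the pathway differs once Eif4a2 is targeted. The fitted changes of the members had both signs. In RPFs, 1 of the 10 (Dusp5, higher) passed an adjusted p of 0.1, where 10.3% of the 10291 genes tested did (6.60% higher and 3.72% lower), and 3 had an unadjusted p under 0.05 (23.4% of all genes). DESeq2 also called Dusp5 alone, where it called 9.31% of genes. The fitted log2 fold change was below 0 for 7 of the 10 members (51.1% of all genes), with a median of -0.08 beside -0.01 over all genes. In total RNA 0 of 10 passed by edgeR and 0 by DESeq2 (background 6.13% of 10880 genes by edgeR, 4.35% higher and 1.78% lower, and 5.41% by DESeq2), 4 had an unadjusted p under 0.05 (18.3% of all genes), 5 were below 0 (48.4%), and the median was -0.08 beside 0.01. For the 10 members, the ranges of the lines overlapped in every readout. Of all genes, 2.13% in RPFs and 1.97% in total RNA had ranges that did not overlap.

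Scaling moved this balance. With library size alone, 2 members passed in RPFs (Dusp6 and Etv5, both lower; 4.68% of genes higher and 11.0% lower) and 3 in total RNA (Dusp4, Dusp6 and Etv5, all lower; 2.41% higher and 7.98% lower). With upper-quartile factors only Etv5 passed in RPFs, lower (5.19% higher and 4.51% lower), and 0 members passed in total RNA (2.99% and 1.99%). The sign of Dusp5, Dusp6 and Etv5 was the same under each scaling.

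**Figure D1:**
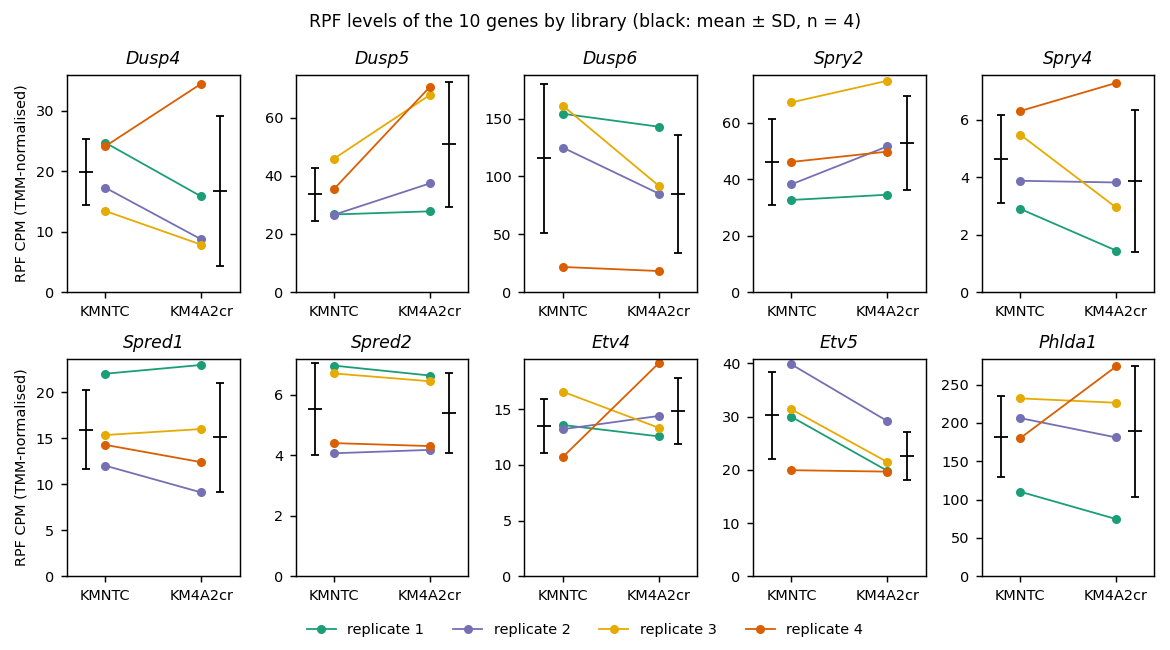
RPF level in TMM-normalised CPM (y axis, from 0) of each member in KMNTC and KM4A2cr cells, with a line joining the libraries of 1 replicate and the mean ± SD of 4 in black. Dusp5 and Spry2 were higher and Dusp6 and Etv5 lower in KM4A2cr in 4 of 4 replicates, and replicate 4 of Dusp6 lay far below the others in both lines.

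The fitted changes of the phosphatases had opposite signs. Dusp5 encodes an ERK-specific phosphatase of the nucleus (ENSMUSG00000034765.7). Its RPFs were 26.7, 26.6, 45.9 and 35.5 CPM in KMNTC replicates 1 to 4 and 27.8, 37.4, 67.8 and 70.6 CPM in KM4A2cr. KM4A2cr was higher in each pair, from 1.04-fold in replicate 1 to 1.99-fold in replicate 4, while the ranges of the lines overlapped. Dusp5 footprints rose by 0.52 on the log2 scale (SE 0.16, adjusted p = 0.0988, edgeR), which is close to the threshold. The call was lost without replicate 1 (adjusted p = 0.117, edgeR), replicate 2 (0.360), replicate 3 (0.345) or the replicate term of the model (0.998). Without that term 0 of 10291 genes passed. Without replicate 1, 2 or 3, 0 of the other pathway genes listed below passed in RPFs, and the share over all genes is not given. In total RNA its levels were 79.2, 97.7, 111 and 108 CPM in KMNTC and 89.0, 103, 181 and 157 CPM in KM4A2cr. These too were higher in 4 of 4 pairs, with a log2 fold change of 0.37 (SE 0.14) that did not pass (adjusted p = 0.191, edgeR).

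Dusp6, the cytoplasmic ERK phosphatase and a commonly used marker of ERK activity (ENSMUSG00000019960.9), showed the opposite sign. Its RPFs were 154, 125, 161 and 21.8 CPM in KMNTC and 143, 85.2, 92.0 and 18.3 CPM in KM4A2cr. KM4A2cr was lower in 4 of 4 pairs, by ratios of 0.927, 0.682, 0.571 and 0.839, and the log2 fold change of -0.44 (SE 0.15) did not pass (adjusted p = 0.124, edgeR). In total RNA it stood at 141, 107, 130 and 36.4 CPM in KMNTC and 138, 82.8, 100.2 and 23.5 CPM in KM4A2cr, lower in 4 of 4 pairs (log2 fold change -0.34, SE 0.13, adjusted p = 0.211, edgeR). The gap between replicate 4 and the rest was far wider than the gap between the lines. In RPFs, Dusp6 in replicate 4 was at 0.149 of the mean of replicates 1 to 3 in KMNTC and 0.172 in KM4A2cr, and 36 of 10291 genes (0.350%) were as low or lower in both lines. In total RNA the ratios were 0.289 and 0.220, and 61 of 10880 genes (0.561%) were as low or lower in both.

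Dusp4 encodes a nuclear phosphatase of ERK and other MAP kinases (ENSMUSG00000031530.7). Its RPFs were 24.7, 17.3, 13.4 and 24.1 CPM in KMNTC and 15.8, 8.73, 7.86 and 34.5 CPM in KM4A2cr. Replicates 1 to 3 were lower in KM4A2cr, at 0.640, 0.506 and 0.585 of KMNTC, whereas replicate 4 was higher at 1.43. The fitted change over the 4 pairs was -0.46 (log2, SE 0.24, adjusted p = 0.275, edgeR). Its total RNA was 42.8, 27.3, 25.3 and 47.9 CPM in KMNTC and 32.5, 21.6, 17.2 and 44.5 CPM in KM4A2cr. Here KM4A2cr was lower in 4 of 4 pairs (log2 fold change -0.34, SE 0.13, adjusted p = 0.194, edgeR).

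Spry2 and Spry4 encode membrane-associated inhibitors of receptor signalling to RAS and RAF. Spry2 (ENSMUSG00000022114.6) had RPFs of 32.7, 38.22, 67.3 and 46.2 CPM in KMNTC and 34.5, 51.7, 74.9 and 49.8 CPM in KM4A2cr. It was higher in KM4A2cr in 4 of 4 pairs, by 1.06- to 1.35-fold (log2 fold change 0.20, SE 0.13, adjusted p = 0.384, edgeR). Its total RNA went the other way in 2 pairs: 132, 152, 206 and 183 CPM in KMNTC stood against 109, 163, 229 and 97.7 CPM in KM4A2cr (log2 fold change -0.22, SE 0.18, adjusted p = 0.549, edgeR). Replicate 4 of KM4A2cr was the lowest of these 8 values, and without replicate 4 the log2 fold change was -0.01.

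Spry4 (ENSMUSG00000024427.8) was scarce. RPFs were 2.90, 3.87, 5.48 and 6.29 CPM in KMNTC and 1.45, 3.81, 2.95 and 7.27 CPM in KM4A2cr, lower in 3 of 4 pairs and higher in replicate 4 (log2 fold change -0.38, SE 0.26, adjusted p = 0.419, edgeR). Total RNA was 6.03, 11.5, 12.3 and 12.7 CPM in KMNTC and 7.20, 12.6, 10.4 and 17.8 CPM in KM4A2cr, higher in 3 of 4 pairs (log2 fold change 0.15, SE 0.17, adjusted p = 0.682, edgeR). The ranges of the lines overlapped widely in both readouts.

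Spred1 and Spred2 encode inhibitors that bring neurofibromin to RAS at the membrane. Spred1 (ENSMUSG00000027351.15) had RPFs of 22.0, 12.0, 15.3 and 14.3 CPM in KMNTC and 23.0, 9.10, 16.0 and 12.4 CPM in KM4A2cr, with 2 pairs on each side (log2 fold change -0.11, SE 0.15, adjusted p = 0.711, edgeR). Its total RNA was 232, 199.8, 236 and 236 CPM in KMNTC and 185, 225, 209 and 175 CPM in KM4A2cr (log2 fold change -0.19, SE 0.14, adjusted p = 0.523, edgeR). KM4A2cr was lower in 3 of 4 pairs, and replicate 2 ran the other way. Spred1 lies on chromosome 2. In RPFs the median log2 change of 833 tested genes of chromosome 2 was -0.21, with 10.2% called lower against 3.72% of all genes. In total RNA the median of 900 tested genes of chromosome 2 was -0.17, with 5.33% called lower against 1.78% of all genes. The part of this in the Spred1 values was not tested.

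Spred2 (ENSMUSG00000045671.18) differed least between the lines. RPFs were 6.97, 4.07, 6.71 and 4.41 CPM in KMNTC and 6.64, 4.18, 6.45 and 4.31 CPM in KM4A2cr (log2 fold change -0.03, SE 0.18, adjusted p = 0.930, edgeR). The replicate set the level here more than the line did, since replicates 1 and 3 were high and 2 and 4 low in both. Its total RNA was 33.8, 29.95, 43.5 and 28.2 CPM in KMNTC and 34.7, 27.6, 42.6 and 32.96 CPM in KM4A2cr (log2 fold change 0.02, SE 0.13, adjusted p = 0.952, edgeR).

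Etv4 and Etv5 encode closely related ETS transcription factors induced by ERK, and their fitted changes had opposite signs. Etv5 (ENSMUSG00000013089.16) had RPFs of 29.96, 39.8, 31.4 and 19.9 CPM in KMNTC and 19.8, 29.2, 21.5 and 19.7 CPM in KM4A2cr. KM4A2cr was lower in 4 of 4 pairs, clearly in replicates 1 to 3 (0.661, 0.732 and 0.684 of KMNTC) and barely in replicate 4 (0.986), with a log2 fold change of -0.42 (SE 0.14, adjusted p = 0.119, edgeR). Total RNA of Etv5 was 29.7, 38.0, 31.6 and 22.6 CPM in KMNTC and 22.2, 32.1, 21.4 and 21.4 CPM in KM4A2cr, again lower in 4 of 4 pairs (log2 fold change -0.33, SE 0.13, adjusted p = 0.220, edgeR). The change of its footprints relative to its mRNA was -0.10 (log2, SE 0.13, adjusted p = 0.784, edgeR).

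Etv4 (ENSMUSG00000017724.15) had RPFs of 13.6, 13.2, 16.6 and 10.7 CPM in KMNTC and 12.6, 14.4, 13.3 and 19.1 CPM in KM4A2cr. Replicate 4 went from the lowest KMNTC value to the highest of all 8, and the pairs split 2 to 2 (log2 fold change 0.10, SE 0.19, adjusted p = 0.790, edgeR). Its total RNA was 21.2, 28.8, 26.2 and 27.0 CPM in KMNTC and 21.6, 32.5, 32.2 and 28.4 CPM in KM4A2cr, slightly higher in 4 of 4 pairs (log2 fold change 0.15, SE 0.13, adjusted p = 0.592, edgeR). The sign was not stable to scaling: with library size alone the change was -0.03 in RPFs and -0.01 in total RNA.

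Phlda1, which encodes a pleckstrin homology-like domain protein induced by growth factor signalling (ENSMUSG00000020205.9), did not share a sign between the 2 kinds of library. RPFs were 110, 206, 232 and 180 CPM in KMNTC and 74.6, 181, 226 and 274 CPM in KM4A2cr, lower in 3 pairs and 1.52-fold higher in replicate 4 (log2 fold change -0.05, SE 0.18, adjusted p = 0.902, edgeR). In total RNA it was 59.6, 76.4, 110 and 109 CPM in KMNTC and 68.5, 87.3, 137 and 109.9 CPM in KM4A2cr. The mRNA was higher in 4 of 4 pairs, by 1.01- to 1.25-fold (log2 fold change 0.18, SE 0.12, adjusted p = 0.461, edgeR).

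**Figure D2:**
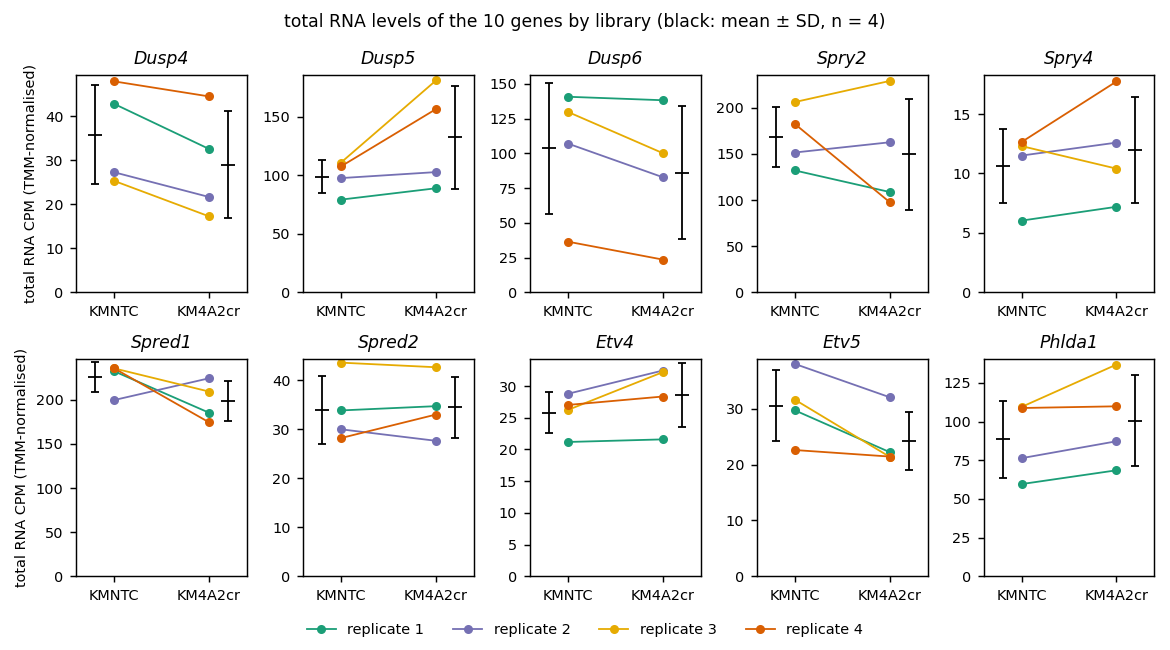
Total RNA level in TMM-normalised CPM (y axis, from 0) of each member, drawn as for the RPFs, with the mean ± SD of 4 libraries in black. Dusp4, Dusp6 and Etv5 were lower and Dusp5, Etv4 and Phlda1 higher in KM4A2cr in 4 of 4 replicates.

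Counted over pairs, 2 members were higher in 4 of 4 pairs in RPFs (Dusp5 and Spry2) and 2 were lower (Dusp6 and Etv5), where 14.1% and 16.0% of all genes were. In total RNA the counts were 3 higher (Dusp5, Etv4 and Phlda1) and 3 lower (Dusp4, Dusp6 and Etv5), where 12.4% and 13.0% of all genes were. Dusp5, Dusp6 and Etv5 therefore kept their sign in every pair of both kinds of library. The share of all genes that did so in both kinds was not counted. RPFs and total RNA share their lysates, so the 2 kinds are not separate samples.

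**Figure D3:**
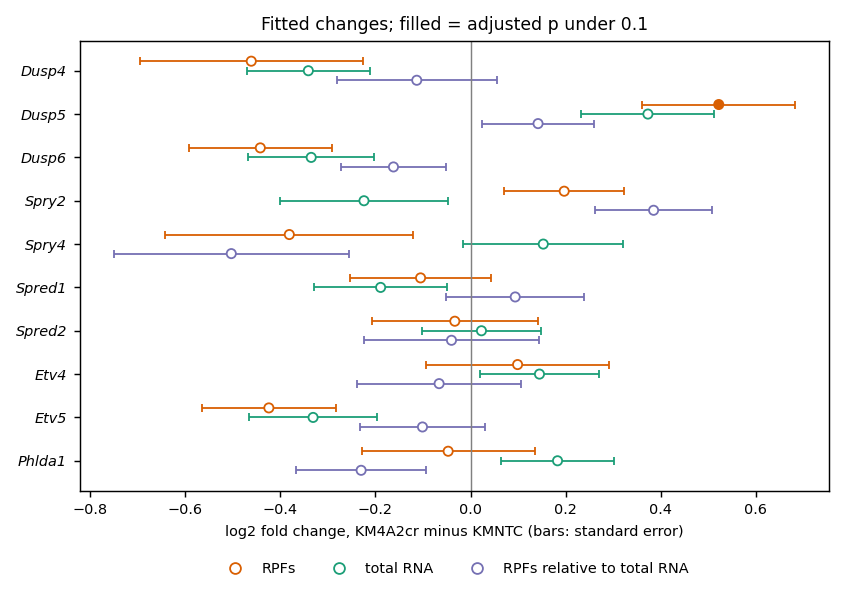
Fitted log2 fold change of KM4A2cr against KMNTC (x axis) with its standard error for the 10 members in RPFs, total RNA and RPFs relative to total RNA. The filled point, Dusp5 in RPFs at 0.52, is the only 1 of the 30 with an adjusted p under 0.1 by edgeR.

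Translational efficiency, the change in RPFs relative to the change in mRNA of the same lysates, was tested as an interaction over the 16 libraries. By edgeR 0 of 10 members passed, where 2.91% of 9989 genes did (1.87% higher and 1.04% lower), and 1 (Spry2) had an unadjusted p under 0.05 (14.1% of all genes). The interaction was below 0 for 7 of the 10 (52.9% of all genes). DESeq2 also called 0 (background 1.39%), and left 5 of the 10 without an adjusted p. The ratio of RPF to total RNA CPM for Spry2 was 0.247, 0.252, 0.326 and 0.253 in KMNTC and 0.318, 0.318, 0.327 and 0.510 in KM4A2cr. Replicates 1, 2 and 4 were clearly higher in KM4A2cr and replicate 3 was nearly level, at 1.003 of KMNTC. The interaction was 0.39 on the log2 scale (SE 0.12, adjusted p = 0.123, edgeR).

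Spry4 had the reverse pattern, with ratios of 0.480, 0.336, 0.445 and 0.498 in KMNTC and 0.201, 0.303, 0.283 and 0.410 in KM4A2cr. It was lower in 4 of 4 pairs, with an interaction of -0.50 (SE 0.25, adjusted p = 0.362, edgeR). Phlda1 ratios were 1.85, 2.70, 2.12 and 1.65 in KMNTC and 1.09, 2.07, 1.65 and 2.49 in KM4A2cr. They were lower in replicates 1 to 3 and higher in replicate 4 (interaction -0.23, SE 0.14, adjusted p = 0.476, edgeR). The other 7 members had interactions between -0.16 (Dusp6) and 0.14 (Dusp5), none with an unadjusted p under 0.05.

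**Figure D4:**
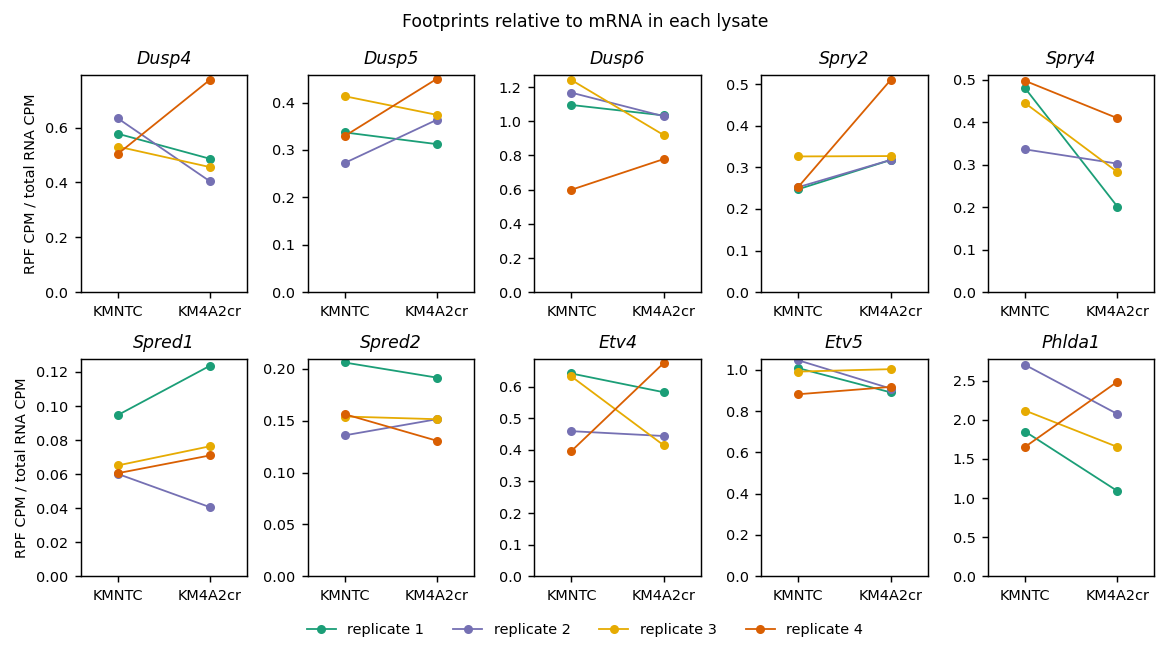
Ratio of RPF CPM to total RNA CPM of the same lysate (y axis, from 0) for each member in KMNTC and KM4A2cr cells, with lines joining replicates. Spry2 was higher and Spry4 lower in KM4A2cr in 4 of 4 replicates, and for Dusp4, Dusp6, Etv4 and Phlda1 replicate 4 ran against the other 3.

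Replicate 4 changed how many members passed. With replicates 1 to 3 alone, 4 members passed in RPFs (background 33.4% of 10376 genes): Dusp4 at -0.79 (adjusted p = 0.00255, edgeR), Dusp6 at -0.48 (0.0142), Etv5 at -0.53 (0.00763) and Dusp5 at 0.38 (0.0514). In total RNA 5 passed (background 29.8% of 10941 genes): Dusp4 at -0.43 (adjusted p = 0.0129, edgeR), Etv5 at -0.40 (0.0178), Dusp6 at -0.26 (0.0659), Dusp5 at 0.31 (0.0549) and Phlda1 at 0.23 (0.0971). For translational efficiency 1 passed (background 6.68% of 10072 genes), Phlda1 at -0.47 (adjusted p = 0.00622, edgeR). The called members again included both signs.

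Within replicate 4 the members also departed from replicates 1 to 3 in different directions. In RPFs of KM4A2cr, replicate 4 was 3.19 times the mean of the others for Dusp4, 2.66 for Spry4, 1.70 for Phlda1, 1.59 for Dusp5 and 1.42 for Etv4. The KMNTC ratios were 1.31, 1.54, 0.984, 1.07 and 0.740 for the same genes. Dusp6, Etv5, Spred1 and Spred2 were lower in replicate 4 in both lines, Etv5 at 0.591 in KMNTC and 0.837 in KM4A2cr, Spred1 at 0.867 and 0.774, and Spred2 at 0.745 and 0.748. Whatever set replicate 4 apart was not tested.

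**Figure D5:**
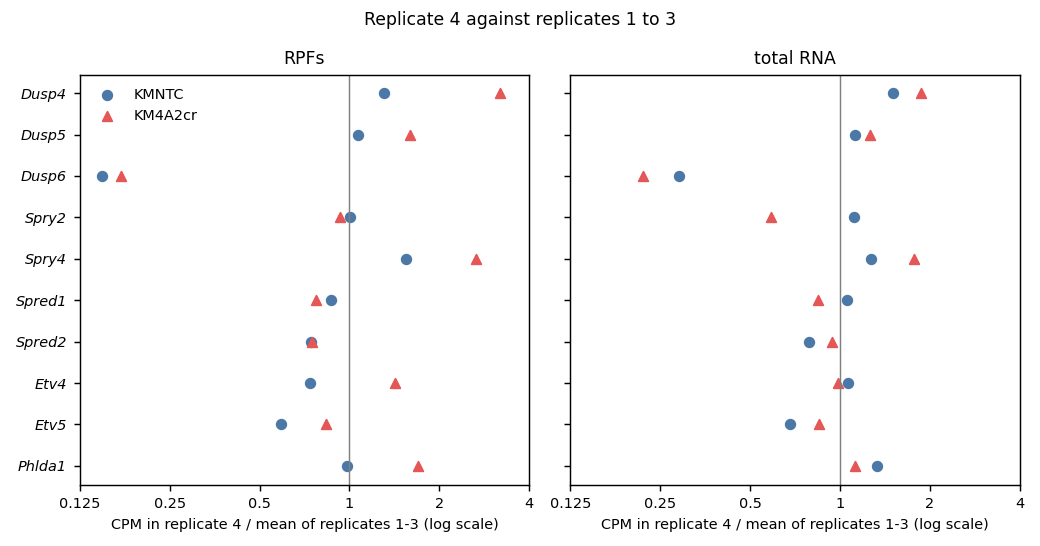
CPM in replicate 4 divided by the mean of replicates 1 to 3 (x axis, log scale) for each member, with circles for KMNTC and triangles for KM4A2cr, in RPFs (left) and total RNA (right). Dusp6 lay at 0.149 and 0.172 in RPFs, and Dusp4 in RPFs of KM4A2cr reached 3.19.

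The other genes of the pathway were read from 3 lists, 72 genes in all. Of the 32 genes of the cascade from adaptors and RAS to RSK and MNK kinases, 0 passed in RPFs (7 with an unadjusted p under 0.05 by edgeR, and 0 called by DESeq2), 0 in total RNA (1, and 0 by DESeq2) and 0 in translational efficiency (7, and 0 by DESeq2). Over all genes, 10.3%, 6.13% and 2.91% passed in RPFs, total RNA and translational efficiency. The shares of all genes with an unadjusted p under 0.05 by edgeR were 23.4%, 18.3% and 14.1%. With library size alone, 3 of the cascade genes were called in RPFs and 2 in total RNA, all lower. Of all genes, 11.0% and 7.98% were called lower with that scaling. The smallest p in total RNA belonged to the RAS relative Rras2, at -0.43 (log2, SE 0.13, adjusted p = 0.114, edgeR) and lower in 4 of 4 pairs, with -0.31 in RPFs (SE 0.14, adjusted p = 0.208, edgeR).

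Among paralogues of the members, 1 of 13 tested rose in RPFs, where 6.60% of all genes did, and 2 of 14 in total RNA, where 4.35% did, and 0 fell in either. With library size alone the balance differed: Dusp7 was called higher and Dusp14 lower in RPFs, while Dusp14 and Dusp16 were called lower and 0 higher in total RNA. Dusp7, an ERK phosphatase of the same subfamily as Dusp6, ranged from 13.6 to 32.7 CPM in KMNTC and from 22.8 to 103 CPM in KM4A2cr in RPFs. It was higher in 4 of 4 pairs and rose by 0.79 (log2, SE 0.22, adjusted p = 0.0755, edgeR), and in total RNA by 0.59 (SE 0.16, adjusted p = 0.0818, edgeR). Spred3 rose in total RNA by 0.50 (log2, SE 0.13, adjusted p = 0.0730, edgeR), with 22.8 to 35.4 CPM in KMNTC and 26.7 to 54.8 CPM in KM4A2cr. Spred3 stood at 0.46 in RPFs (SE 0.18, adjusted p = 0.168, edgeR). DESeq2 called Dusp7 in both kinds of library and did not call Spred3. With upper-quartile factors neither gene was called in total RNA.

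Of 24 other outputs tested, 2 rose and 0 fell in each kind of library, beside 6.60% of all genes called higher in RPFs and 4.35% in total RNA. Fos, an immediate early gene and AP-1 subunit, ranged widely, from 4.80 to 51.8 CPM in KMNTC and from 5.92 to 91.3 CPM in KM4A2cr in RPFs. It was higher in 4 of 4 pairs, by 0.60 in RPFs (log2, SE 0.14, adjusted p = 0.0446, edgeR) and by 0.73 in total RNA (SE 0.15, adjusted p = 0.0318, edgeR). Areg, which encodes the EGF receptor ligand amphiregulin, rose in RPFs by 0.47 (SE 0.13, adjusted p = 0.0690, edgeR) and stood at 0.42 in total RNA (SE 0.13, adjusted p = 0.131, edgeR). Lif, a cytokine gene, rose in total RNA by 0.58 (SE 0.16, adjusted p = 0.0770, edgeR) and stood at 0.43 in RPFs (SE 0.14, adjusted p = 0.119, edgeR). The median over this list was 0.15 in RPFs and 0.17 in total RNA, beside -0.01 and 0.01 over all genes. With library size alone, Dusp7 and Fos remained called in RPFs and Fos in total RNA. Leaving out any of replicates 1, 2 and 3 ended the RPF calls of Dusp7, Fos and Areg. The share of all genes called in those fits is not given. Of the other outputs, DESeq2 called Fos and Areg in RPFs and Fos and Lif in total RNA. With upper-quartile factors Lif was not called in total RNA.

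In translational efficiency, Ets2 was lower by -0.37 on the log2 scale (SE 0.11, adjusted p = 0.0893, edgeR), in 4 of 4 pairs, and Elk4 was higher by 0.57 (SE 0.16, adjusted p = 0.0893, edgeR), in 3 of 4 pairs. Both are ETS factors downstream of ERK, they were named after their values were seen, and DESeq2 called neither. Of the remaining listed genes, Egr3 did not pass the filter in either kind of library, Etv1 did not pass in RPFs, and Spry3 was not analysed here.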

How the data were processed

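RPFs and cytoplasmic total RNA were sequenced from 4 replicates each of KMNTC and KM4A2cr cells. The RPF files hold counts deposited by the authors, as whole numbers over the coding sequence of 1 transcript per gene. For total RNA the authors deposited RSEM expected counts, TPM and the percent of each gene's TPM held by an isoform, against GENCODE vM27. Their notes name cutadapt 1.18, UMI-tools 1.0.1, SAMtools 1.9, Bowtie2 2.3.5.1 and RSEM 1.3.3. Expected counts were summed per gene and rounded, and a transcript not listed in an RPF library was taken as 0. Symbols were found for 20586 of 20622 genes.

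Tests used edgeR 4.0.16 in R 4.3.3 (filterByExpr, TMM within each kind of library, quasi-likelihood test, cell line and replicate as terms), with Benjamini-Hochberg adjustment over all genes tested and a threshold of 0.1. The model fits were tested on simulated counts. Translational efficiency was the interaction of line and kind of library. Same-numbered libraries of the 2 lines deviated together from their group means (correlations 0.595 to 0.813 in RPFs, 0.632 to 0.764 in total RNA), so the replicate was kept as a block. Alternatives used DESeq2 1.42.0, other scalings, filters, a threshold of 0.05, no block, the RPF isoform only and each replicate left out. All 10 members were described, and from 3 pathway lists the genes called, or with the smallest p, in either kind of library, and some items are not reported here. Members and lists were chosen with earlier results of these data known. Each kind was normalised on its own, so a change shared by all footprints or all mRNA is not seen. CPM ratios and counts per library carry counting error beside the spread between replicates. Promoters came from RefSeq (GRCm38.p6), another build than the files'.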

Additional observations from a re-analysis of the deposited data

Results flagged for a closer look

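Of 40 groups of 4 libraries examined over the members and readouts, 2 held 1 library apart from the other 3 beyond Dixon's 95% critical value, about the number that chance gives at 1 in 20 groups. Spred1 total RNA in KMNTC replicate 2 was 199.8 CPM, below the other 3 at 232 to 236 CPM, with a gap over range of 0.908. Etv5 total RNA in KM4A2cr replicate 2 was 32.1 CPM (32.07), above the other 3 at 21.4 to 22.2 CPM, with a gap over range of 0.921. No explanation was tested for either.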

How the results depend on the processing

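Of the 1 member passing in RPFs, the count was 2 with library size only (Dusp6 and Etv5, both lower), and 0 with a stricter filter or a threshold of 0.05. Upper-quartile factors gave 1, but it was Etv5, lower, and not Dusp5. Leaving out 1 replicate gave 0 to 4. In total RNA library size only gave 3 members (Dusp4, Dusp6 and Etv5, all lower) in place of 0, and leaving out 1 replicate 0 to 5. In translational efficiency no filter gave 1 (Spry2) in place of 0, and leaving out 1 replicate 0 to 1. Library size only lowered the median of all genes to -0.15 in both kinds of library (-0.145 and -0.146). The 3 other pathway genes in RPFs became 6 with library size only (2 higher and 4 lower, without Areg). At a threshold of 0.05 the count was 1 (Fos), with 0 to 22 on leaving out 1 replicate. The 4 in total RNA became 5 with library size only (1 higher and 4 lower). Upper-quartile factors gave 2 in total RNA, Fos (higher) and Rras2 (lower), so the others of the 4 were lost. At a threshold of 0.05 the count was 1 (Fos), with 0 to 19 on leaving out 1 replicate. The 2 in translational efficiency became 0 with DESeq2, library size only or a threshold of 0.05, and 5 with no filter, with 0 to 8. The highest counts in these ranges were without replicate 4, and the cause was not tested. Of all genes, 33.4%, 29.8% and 6.68% passed without replicate 4 in RPFs, total RNA and translational efficiency. The shares of all genes are not given for the other replicates left out or for the changed filters.

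Without the replicate block, 0 of the 10 members and 0 other pathway genes passed in each readout. Over all genes 0 passed too, with 365, 362 and 22 at an unadjusted p under 0.05 in RPFs, total RNA and translational efficiency, and 0 members among them.

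Some small log2 fold changes turned sign. Leaving out 1 replicate moved Spred2 in RPFs from -0.053 to 0.011 (above 0 without replicate 3), Etv4 in RPFs from -0.096 (without replicate 4) to 0.277, and Phlda1 in RPFs from -0.255 to 0.122, with 0.006 without replicate 2. It moved Spred2 in total RNA from -0.047 (without replicate 4) to 0.073. In translational efficiency it moved Dusp4 from -0.365 to 0.067 (without replicate 2), Spred1 from -0.055 (without replicate 1) to 0.300, Spred2 from -0.102 to 0.002 (without replicate 4) and Etv4 from -0.245 to 0.154 (without replicate 3). With library size only, Etv4 turned to -0.033 in RPFs, and Spry4 (-0.004), Spred2 (-0.133) and Etv4 (-0.011) turned in total RNA. Upper-quartile factors gave -0.016 for Spred2 in total RNA. Without the block, Phlda1 in RPFs was 0.052 and Dusp4 in translational efficiency 0.032. Over these and the remaining alternatives, single-gene values were counted for the members and for Eif4a2. Of these values, 372 kept their direction and side of the threshold, 17 gained a call, 13 lost one and 16 turned sign. The lost calls were those of Dusp5 and Eif4a2 in RPFs. Spry4 had the fewest RPF counts of the members, 12 to 40 per library, which limits its ratios.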
